A study of Mus musculus with 16 samples.

Results

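The class I odorant receptors of mouse chromosome 7 were taken as all genes whose symbol is Olfr with a number in the range Olfr543 to Olfr692 in the array's gene annotation. That gave 112 receptors among the 19505 genes measured. All 112 matched a RefSeq gene on chromosome 7, and each was read by 1 array feature. Olfactory mucosa came from S100a5-tauGFP mice of strain C57BL/6, of both sexes and aged 7 to 12 weeks, in which a green fluorescent reporter follows S100a5, a gene whose transcription tracks activity of olfactory sensory neurons. All 24 mice, controls included, carried the reporter and spent 40 h alone in a clean air chamber with a flow of 3.1 L/min. From 26 h onward a group of odor mice received pulses of whiskey lactone, an oak aroma compound, and a group of vehicle mice received pulses of filtered air, each lasting 10 s and repeated every 20 min. Dissociated cells were sorted by fluorescence, and each array pooled 3 mice. The groups were odor arrays titled GFP+, odor arrays titled GFP-, vehicle arrays titled GFP+ and vehicle arrays titled GFP-, with 4 arrays in each, and each of the 8 pools supplied 1 array of either title.

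Odorant receptors are G protein-coupled receptors, and a mature olfactory sensory neuron expresses a single allele of a single receptor gene. Class I receptors resemble the receptors of fish, occupy 1 cluster in the genome and are known chiefly for detecting carboxylic acids and other hydrophilic odorants, while class II receptors are scattered over many chromosomes. Most class I neurons lie in the dorsal zone of the epithelium, and their signal passes through the G protein subunit encoded by Gnal, adenylyl cyclase 3 and a cyclic nucleotide-gated channel. The signal of a receptor in sorted cells depends on how many cells chose it and on how much RNA each holds, and fewer cells of a type and less RNA per cell cannot be told apart here.

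The upstream sequences of 3 members are shown because these lie at either end of the results below, Olfr629 among the most raised and Olfr613 and Olfr570 among the most lowered in arrays titled GFP+. RefSeq (GRCm38.p6) listed an upstream window for 96 of the 112 members. In 73 of them the annotated start coincides with the coding start, so only 23 windows precede a start upstream of the coding sequence, and these 3 are among them. Each is the 250 bases before the annotated gene start, written 5′ to 3′ along the gene. They lie at chr7:103741323-103741572 (Olfr629, minus strand), chr7:103550118-103550367 (Olfr613, plus strand) and chr7:102900092-102900341 (Olfr570, plus strand). Capitals mark matches to the searched motifs.
Olfr629: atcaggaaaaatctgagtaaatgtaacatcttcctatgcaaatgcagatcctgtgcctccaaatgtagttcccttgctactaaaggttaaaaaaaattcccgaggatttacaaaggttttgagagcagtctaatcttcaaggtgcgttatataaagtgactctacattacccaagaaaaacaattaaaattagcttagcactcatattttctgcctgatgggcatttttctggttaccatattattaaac
Olfr613: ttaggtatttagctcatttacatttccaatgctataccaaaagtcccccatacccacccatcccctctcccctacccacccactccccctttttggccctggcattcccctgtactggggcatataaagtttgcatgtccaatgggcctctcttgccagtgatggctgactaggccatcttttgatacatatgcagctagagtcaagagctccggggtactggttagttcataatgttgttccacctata
Olfr570: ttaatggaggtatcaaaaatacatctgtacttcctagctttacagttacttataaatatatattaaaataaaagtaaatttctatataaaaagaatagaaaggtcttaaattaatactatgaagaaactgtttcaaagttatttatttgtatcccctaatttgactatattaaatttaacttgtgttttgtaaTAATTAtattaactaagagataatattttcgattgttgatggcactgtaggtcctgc
Both strands were searched for CCCNNGGG, a core of the motif bound by EBF factors, and for TAATTA or TAATGA, cores bound by homeodomain factors such as Lhx2. Overlapping matches were each counted as a hit of the window. Of the 23 members' windows, 8 (34.8%) held TAATTA or TAATGA and 2 (8.70%) held CCCNNGGG, against 12.5% and 11.8% of all 32851 RefSeq windows of the same length. Base composition was not matched in that comparison. The Olfr570 window held TAATTA starting 57 bases before the gene start, and neither the Olfr629 nor the Olfr613 window held a searched motif. One of the CCCNNGGG matches was in the window of Olfr550, and that window is not printed because it lies within the annotated span of the gene.

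The title and the cell type field name the sorted fraction in opposite ways in all 16 arrays. S100a5 was lower in the array titled GFP+ in 8 of 8 pools. Groups are called by title, and every fraction difference below is titled GFP+ minus titled GFP-, which would change sign under the other field. Values are log2 signals as deposited. The median of the negative control features was between 4.98 and 5.59 across arrays. Between 75.9 and 84.8% of the 112 members exceeded that median in a given array, and between 21.4 and 43.8% exceeded the 95th percentile of the negative controls. Altogether 74 members exceeded the negative control median in all 16 arrays and 10 did so in none. The level of one gene is not comparable with that of another, because each feature has its own probes, and the number of arrays limits the precision. Markers of other cell types moved with the title. All 8 neutrophil genes were higher in arrays titled GFP+ in both treatments, with a summed signal (log2) of 18.10 to 19.69 in odor arrays titled GFP+ and 9.67 to 11.60 in odor arrays titled GFP-, and of 18.59 to 19.25 and 9.90 to 11.45 in the vehicle arrays of either title. So were 4 of 4 sustentacular, 4 of 4 microvillar, 2 of 3 immature neuron genes and 1 of 1 red cell gene in both treatments, and 4 of 5 macrophage genes in odor pools and 5 of 5 in vehicle pools. The 6 mature neuron markers, which identify the labelled tissue, had summed signals of 19.99 to 20.18 in odor arrays titled GFP+ and 20.24 to 20.31 in odor arrays titled GFP-, and 20.04 to 20.14 and 20.25 to 20.29 in the vehicle arrays. None of the 6 was higher as deposited, and 2 (odor) or 3 (vehicle) were lower. Their direction depended on scaling. The median log2 difference of the 6 was -0.17 in odor and -0.20 in vehicle pools as deposited. It was -0.55 and -0.57 after centring each array on its median, and 0.32 and 0.26 after centring on the other odorant receptors. The part of these shifts in the receptor results was not tested.

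More class I receptors were lower than higher in arrays titled GFP+, and a small set was far higher there. In odor pools, 54 members were lower and 18 higher at an adjusted p under 0.05 (limma, Benjamini-Hochberg over all genes), where 14.7% of all genes were lower and 12.8% higher. In vehicle pools, 61 members were lower and 17 higher, where 13.6% of all genes were lower and 12.3% higher. Members called in odor or vehicle pools include 4 that exceeded the negative control median in none of the 16 arrays. The members' median log2 difference was -0.67 in odor and -0.81 in vehicle pools, while the median over all genes was -0.15 and -0.14. The split depended on scaling. After centring on the other odorant receptors, 29 members were higher and 37 lower in odor pools, and 27 higher and 41 lower in vehicle pools, with all-gene medians of 0.34 and 0.32. Under it 26.1% of all genes were higher and 2.68% lower in odor pools, and 24.6% and 2.53% in vehicle pools. After centring on mature neuron genes, 23 were higher and 39 lower in odor pools, and 24 higher and 46 lower in vehicle pools, with all-gene medians of 0.15 and 0.20, where 20.7% of all genes were higher and 4.00% lower in odor pools, and 23.7% and 3.37% in vehicle pools. After centring each array on its median, 16 members were higher and 75 lower in odor pools, where 9.75% of all genes were higher and 66.2% lower, and 15 members were higher and 77 lower in vehicle pools, where 9.32% and 64.3% were. The all-gene medians were then -0.53 and -0.51, so the members' lower share lay near that of all genes under this scaling. Cyclic loess gave 20 higher and 47 lower members in odor pools (all genes 2922 and 1395 of 19505) and 17 higher and 56 lower in vehicle pools (2792 and 1411), with all-gene medians of -0.02 in both.

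Most calls were shared by both treatments. Of the 68 members called in both odor and vehicle pools, 68 had the same sign, with 15 higher and 53 lower, where 10.9% of all genes were higher in both and 8.75% lower in both. A further 4 were called only in odor pools and 10 only in vehicle pools, and 30 in neither. The sign was negative in 8 of 8 pools for 51 members and positive in 8 of 8 for 15, and mixed for the remaining 46, where 16.5% of all genes were negative and 12.5% positive in 8 of 8. The pools differed in degree, with a median member difference between -0.33 and -0.83 in the odor pools and between -0.44 and -1.08 in the vehicle pools.

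**Figure D1:**
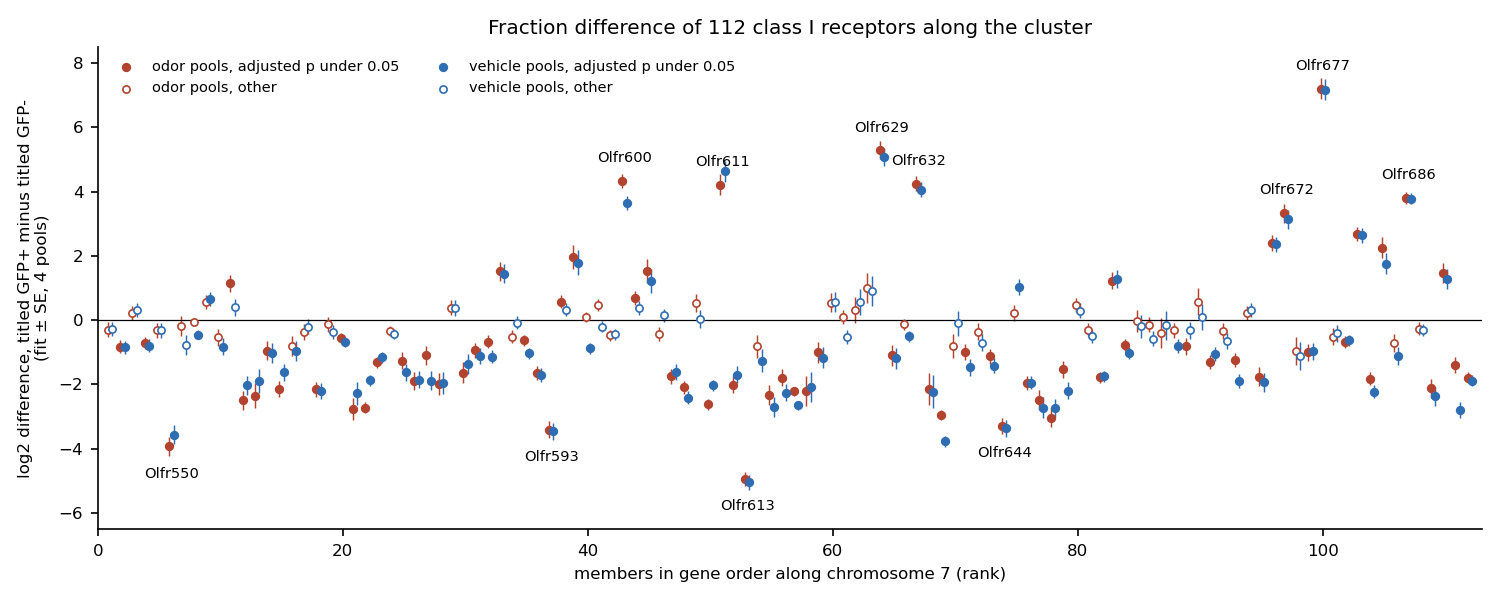
Fitted log2 difference between fractions (titled GFP+ minus titled GFP-, y axis, ± SE, 4 pools) of the 112 class I receptors in gene order (x axis) for odor pools (red) and vehicle pools (blue), filled where the adjusted p was under 0.05. Olfr677 reached 7.20 in odor and 7.17 in vehicle pools, Olfr613 lay at -4.94 and -5.04, and members with high and low values lay side by side.

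A larger share of the other 968 odorant receptors was higher in arrays titled GFP+. In odor pools 16.1% of the class I members were higher and 48.2% lower, against 24.0% and 48.9% of the other receptors, whose median difference was -0.65. In vehicle pools 15.2% of members were higher and 54.5% lower, against 24.9% and 46.9% of the other receptors, with a median of -0.57. At least 8-fold higher signals occurred in 6.25% of members in either treatment, against 11.5% (odor) and 11.8% (vehicle) of the other receptors. At least 8-fold lower signals occurred in 4.46% of members in either treatment, against 8.68% (odor) and 7.75% (vehicle). The 110 other receptors of chromosome 7 outside the cluster had 15 higher and 65 lower in odor pools, with a median of -1.02. In vehicle pools they had 18 higher and 63 lower, with a median of -0.89. Of these 110, 6.36% (odor) and 5.45% (vehicle) were at least 8-fold higher, near the members' share, and 18.2% and 16.4% at least 8-fold lower. These shares describe the lists, and the difference between the lists was not tested.

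**Figure D2:**
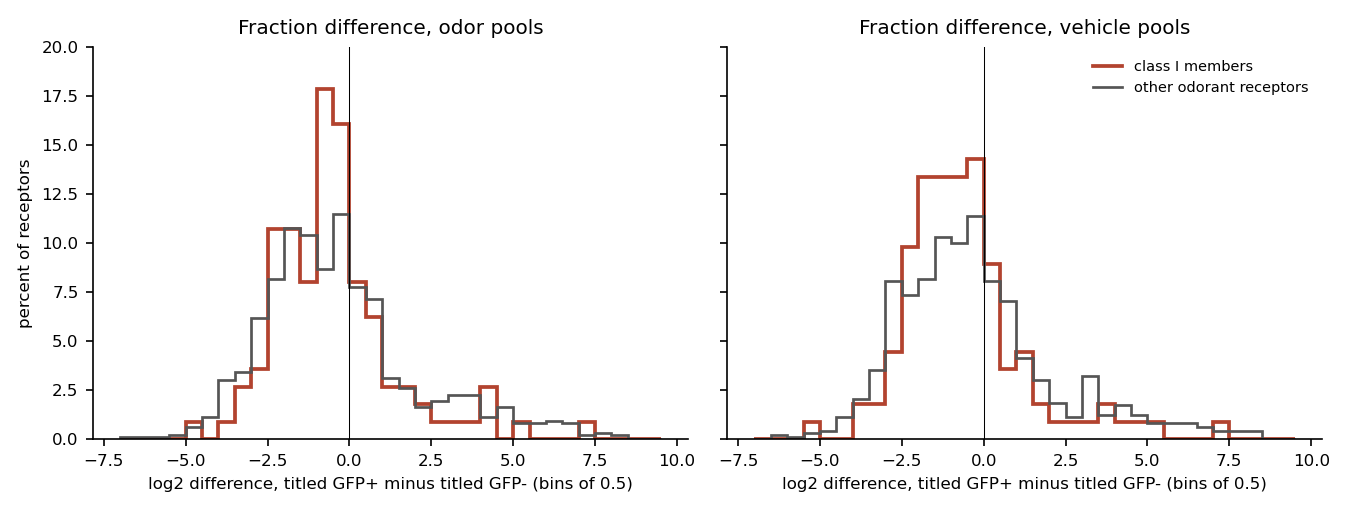
Percent of receptors (y axis) in bins of 0.5 of the log2 difference between fractions (titled GFP+ minus titled GFP-, x axis), for the 112 class I members (red) and the 968 other odorant receptors (grey), in odor pools (left) and vehicle pools (right). Both lists peak below 0, with member medians of -0.67 and -0.81, and carry a tail to the right.

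Olfr677 had the largest difference of any member. Its log2 signals were 12.52, 11.91, 11.78 and 12.78 in odor arrays titled GFP+, against 5.99, 4.72, 4.75 and 4.74 in odor arrays titled GFP-. In vehicle arrays they were 12.07, 11.82, 12.91 and 13.00 (titled GFP+) against 5.88, 5.26, 4.46 and 5.55 (titled GFP-). The fractions did not come near to overlapping in either treatment, and only 1 of 4 arrays titled GFP- exceeded its negative control median in each. The fitted difference was 7.20 ± 0.32 (SE, 4 pools; limma adjusted p = 2.32e-09) in odor and 7.17 ± 0.32 (adjusted p = 2.52e-09) in vehicle pools. Counted against the negative control median where an array titled GFP- lay below it, Olfr677 was at least 113-fold higher in odor and at least 114-fold higher in vehicle pools.

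Olfr629 and Olfr600 rose above the negative control median in arrays titled GFP+ alone. In some odor and some vehicle arrays titled GFP+, both lay below the 95th percentile of the negative controls. Olfr629 had log2 signals of 8.93, 9.10, 9.10 and 9.56 in odor arrays titled GFP+ and 4.61, 3.33, 3.81 and 3.82 in odor arrays titled GFP-, and all 4 arrays titled GFP- lay below the negative control median. Vehicle arrays gave 9.46, 9.11, 10.05 and 9.12 (titled GFP+) and 4.76, 4.69, 4.19 and 3.73 (titled GFP-). The titled GFP+ arrays thus stood above the rest without overlap, by at least 14.8-fold in odor (adjusted p = 1.21e-08) and at least 15.2-fold in vehicle pools (adjusted p = 1.86e-08), counted against the negative control median. Olfr600 followed with at least 14.7-fold in odor and at least 9.59-fold in vehicle pools, from means of 9.17 ± 0.28 against 4.83 ± 0.25 and of 8.77 ± 0.40 against 5.13 ± 0.16 (SD, n = 4).

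Other members were also higher in arrays titled GFP+. Olfr611 gave 10.52, 10.63, 10.24 and 10.86 in odor arrays titled GFP+ against 6.16, 6.29, 6.33 and 6.57 in odor arrays titled GFP-, a difference of 4.22 ± 0.32 (SE; adjusted p = 3.85e-07). The vehicle difference was 4.63 ± 0.32 (adjusted p = 1.70e-07), with 1 vehicle array titled GFP- at 5.03, below its negative control median. Olfr672 had 14.06, 13.76, 13.94 and 14.23 in odor arrays titled GFP+ and 11.69, 9.71, 11.10 and 10.15 in odor arrays titled GFP-. The titled GFP+ arrays were tightly grouped (SD 0.20, n = 4) and the titled GFP- arrays spread (SD 0.89). The difference was 3.33 ± 0.30 in odor (adjusted p = 2.04e-06) and 3.14 ± 0.30 in vehicle pools (adjusted p = 3.86e-06). Olfr681 was 6.39-fold higher in odor and 6.21-fold higher in vehicle pools, Olfr684 was 4.77-fold and 3.39-fold higher, and Olfr596 was 3.91-fold and 3.45-fold higher. Olfr632 was at least 16.2-fold higher in odor and at least 13.0-fold higher in vehicle pools, and exceeded the negative control median in 2 of 4 odor and 1 of 4 vehicle arrays titled GFP-. Olfr686 was at least 11.4-fold higher in odor pools, where 1 of 4 arrays titled GFP- exceeded that median, and at least 9.46-fold higher in vehicle pools, where 0 of 4 did. Olfr671 was at least 3.85-fold higher in odor pools and at least 3.12-fold higher in vehicle pools. Each member named in this paragraph was higher in 8 of 8 pools.

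Olfr613 was the most lowered member. Its log2 signals were 4.56, 4.20, 3.62 and 4.56 in odor arrays titled GFP+, against 9.12, 8.97, 9.39 and 9.21 in odor arrays titled GFP-. They were 4.58, 4.37, 4.19 and 4.50 in vehicle arrays titled GFP+, against 9.51, 9.01, 9.75 and 9.52 in vehicle arrays titled GFP-. It lay below the negative control median in all 8 arrays titled GFP+ and above it in all 8 arrays titled GFP-. Of the arrays titled GFP-, only odor array 3 (9.39) exceeded the 95th percentile of its negative controls (9.168). The level was at least 16.1-fold lower in odor pools (fitted difference -4.94 ± 0.23, SE; adjusted p = 3.38e-09) and at least 17.3-fold lower in vehicle pools (-5.04 ± 0.23; adjusted p = 2.99e-09).

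Olfr550 and Olfr593 were lower in arrays titled GFP+ but stayed above the negative control median in all 16 arrays, although every array titled GFP+ lay below the 95th percentile of its negative controls. Olfr550 had 7.28, 6.82, 7.11 and 8.78 in odor arrays titled GFP+ against 10.84, 11.81, 11.43 and 11.64 in odor arrays titled GFP-, and was 15.3-fold lower (-3.93 ± 0.29, SE; adjusted p = 2.84e-07). In vehicle pools it was 11.8-fold lower (-3.56 ± 0.29; adjusted p = 7.55e-07), again without overlap of the fractions. Olfr593 was 10.6-fold lower in odor (adjusted p = 4.00e-07) and 11.0-fold lower in vehicle pools (adjusted p = 3.56e-07), from means of 7.98 ± 0.74 against 11.39 ± 0.50 and of 8.21 ± 0.65 against 11.67 ± 0.46 (SD, n = 4). Olfr644 was at least 9.64-fold lower in odor pools, where 3 of 4 arrays titled GFP+ exceeded the negative control median, and 10.3-fold lower in vehicle pools. Olfr649, Olfr635, Olfr570, Olfr571, Olfr610, Olfr556, Olfr648, Olfr616 and Olfr618 were lower in both treatments and in 8 of 8 pools, with log2 differences between -2.21 and -3.03 in odor and between -1.87 and -3.77 in vehicle pools.

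**Figure D3:**
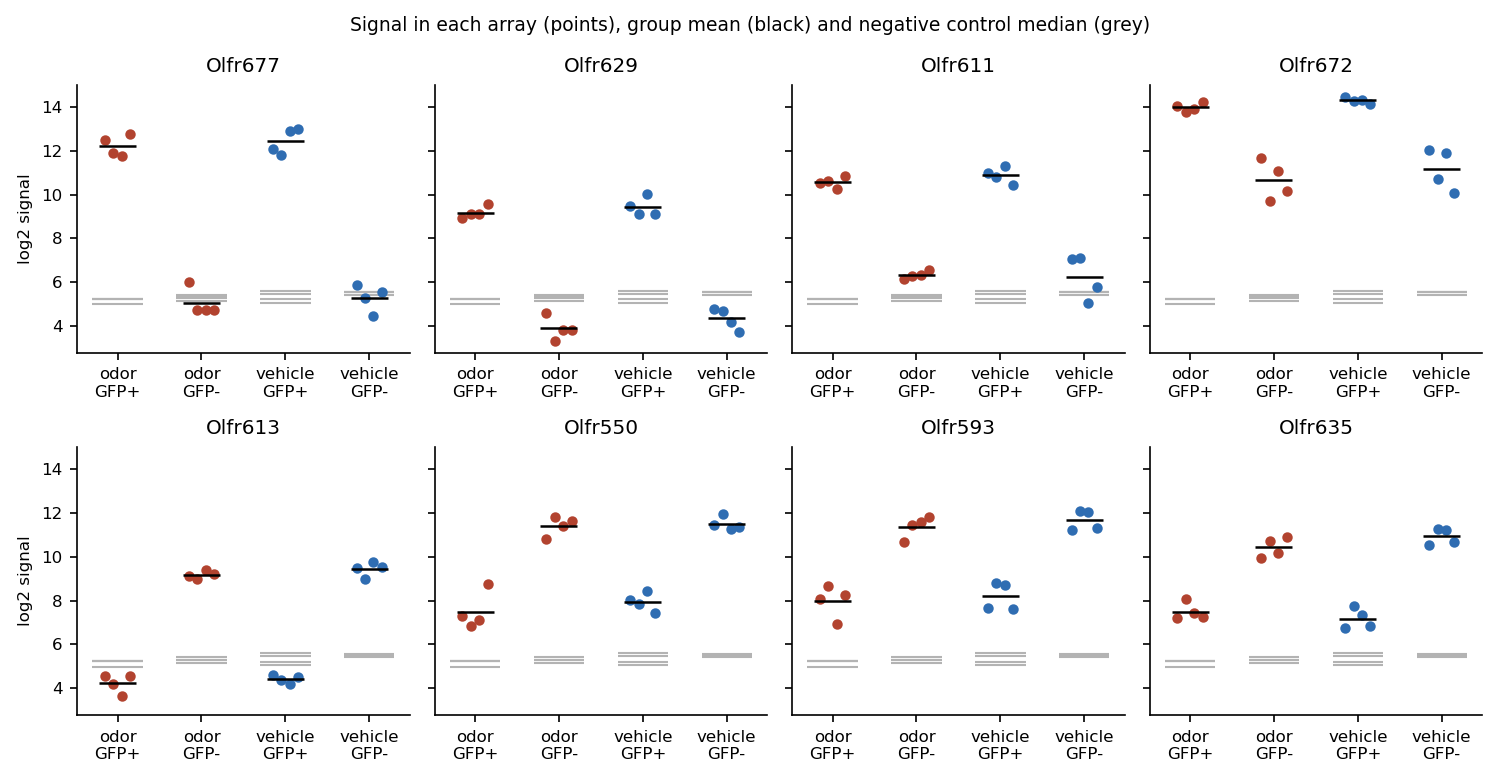
Log2 signal (y axis) of 8 members in each array (points; 4 arrays per group on the x axis, odor red, vehicle blue), with the group mean (black line) and the negative control median of each array (grey lines). Olfr677, Olfr629, Olfr611 and Olfr672 were higher in arrays titled GFP+, and Olfr613, Olfr550, Olfr593 and Olfr635 were lower, in every pool.

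Olfr544 and Olfr558 are members with textbook ligands. Olfr544, a receptor of azelaic acid, had 7.92, 7.96, 7.06 and 7.82 in odor arrays titled GFP+ against 8.82, 8.27, 7.94 and 9.02 in odor arrays titled GFP-. It was lower in 8 of 8 pools, by 0.82 ± 0.19 (SE) on the log2 scale in odor (adjusted p = 0.00527) and 0.85 ± 0.19 in vehicle pools (adjusted p = 0.00454). Olfr558, a receptor of short-chain carboxylic acids, had 5.43, 6.64, 5.56 and 6.64 in odor arrays titled GFP+ against 7.31, 6.92, 6.87 and 6.94 in odor arrays titled GFP-. It was also lower in 8 of 8 pools, with differences of -0.95 ± 0.30 in odor (SE; adjusted p = 0.0334) and -1.02 ± 0.30 in vehicle pools (adjusted p = 0.0251). Both calls were lost after centring on mature neuron genes (Olfr544 adjusted p = 0.0616 in either treatment, Olfr558 0.129 and 0.101). The same calls were lost after centring on the other receptors, and the odor call of Olfr558 under cyclic loess (adjusted p = 0.0640) and without the pool block (adjusted p = 0.0636). The odor call of Olfr558 was also lost without odor pool 1 (-0.63, adjusted p = 0.188) or 3 (-0.82, adjusted p = 0.134), and its vehicle call without vehicle pool 2 (-0.71, adjusted p = 0.133) or 4 (-0.97, adjusted p = 0.0844).

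Among the 5 members whose features had the highest mean signal, Olfr672 had the largest difference in either treatment. Over 16 arrays Olfr549 averaged 13.20, Olfr552 13.16, Olfr598 12.87, Olfr672 12.54 and Olfr652 12.43. Differences were -0.32 ± 0.23 (SE) in either treatment for Olfr549 (adjusted p = 0.333 in odor and 0.334 in vehicle pools), and 0.48 ± 0.22 in odor and 0.30 ± 0.22 in vehicle pools for Olfr652 (adjusted p = 0.125 and 0.338). Olfr652 was called under 3 of 13 alternatives in odor and 2 of 13 in vehicle pools. Olfr598 was at 0.48 ± 0.18 in odor pools (SE; adjusted p = 0.0622), a difference called under 3 of 13 alternatives, and at -0.20 ± 0.18 in vehicle pools (adjusted p = 0.426), called under 1 of 13. Olfr552 was at -0.05 ± 0.13 in odor pools (adjusted p = 0.791) and was lower in vehicle pools (-0.45 ± 0.13, adjusted p = 0.0268). That vehicle call held under only 4 of 13 alternatives, and was lost without the pool block (adjusted p = 0.182), with the pool as a random block (0.114), under cyclic loess (0.0822), and without vehicle pool 1 (0.136), 3 (0.0661) or 4 (0.0580). After centring on the other receptors Olfr552 changed sign, at 0.44 in odor and 0.02 in vehicle pools. The sign of other uncalled differences also varied over the 13 alternatives. Olfr549 ranged from -0.7 to 0.18 in odor and from -0.68 to 0.15 in vehicle pools. In vehicle pools Olfr598 ranged from -0.57 to 0.26 and Olfr652 from -0.07 to 0.76.

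Raised and lowered members lay side by side in the cluster. Neighbours are successive members in gene order, so a receptor left out by the number rule can lie between them. Over 111 pairs of neighbours the mean differences of the 8 pools correlated at r = 0.0340, a description across genes that share arrays and sequence. Of the 40 neighbouring pairs in which both members were called in both treatments, 25 were both lower, 1 both higher and 14 opposite. The opposite pair of Olfr585 and Olfr586 includes a member, Olfr585, that exceeded the negative control median in no array. Olfr611 (mean of 8 pools 4.43) lay between Olfr610 (-2.32) and Olfr612 (-1.86), and Olfr677 (7.18) followed Olfr676 (-0.99). Olfr681 (2.66) and Olfr684 (2.01) lay on either side of Olfr683 (-2.02). In successive stretches of 28 members in gene order, 0 were higher and 16 lower in both treatments in the first (Olfr543 to Olfr578), 5 and 13 in the next (Olfr582 to Olfr617), 3 and 15 in the third (Olfr618 to Olfr656), and 7 and 9 in the last (Olfr657 to Olfr692). The number rule leaves out 8 receptors located inside the cluster. Of these, Olfr69 (6.18 in odor, 6.27 in vehicle pools) and Olfr68 (5.11 and 4.80) were higher, while Olfr33, Olfr243, Olfr67, Olfr66 and Olfr64 were lower in both treatments and Olfr65 was not called (-0.29 and -0.57, adjusted p = 0.390 and 0.104).

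Genes of the receptors' signalling chain differed between fractions by much smaller amounts, and their direction depended on scaling. Of 18 genes for transduction and receptor trafficking, 10 were lower and 0 higher in each treatment as deposited, with median log2 differences of -0.29 in odor and -0.34 in vehicle pools. Over all genes 14.7% (odor) and 13.6% (vehicle) were lower and 12.8% and 12.3% higher. After centring on the other odorant receptors, 3 were higher and 0 lower in odor pools (median 0.21), and 3 were higher and 1 lower in vehicle pools (median 0.13), where 26.1% and 24.6% of all genes were higher and 2.68% and 2.53% lower. Pde1c, a phosphodiesterase of the cilia, was at -0.80 ± 0.09 in odor and -0.81 ± 0.09 in vehicle pools (SE; adjusted p = 2.60e-05 and 2.39e-05), and at -0.31 and -0.35 after that centring. Ano2, the calcium-activated chloride channel, was at -0.47 ± 0.06 and -0.48 ± 0.06 (adjusted p = 5.34e-05 and 4.86e-05), and at 0.03 and -0.02 after that centring. The receptor chaperone gene Rtp2 was at -0.28 and -0.36 (adjusted p = 0.0242 and 0.00575), at 0.22 and 0.10 after that centring, and Rtp1 at -0.09 and -0.19 was not called (adjusted p = 0.382 and 0.0750). Of 22 genes for receptor choice and zone, 2 were higher and 4 lower in odor pools, and 3 were higher and 6 lower in vehicle pools, beside the same shares of all genes as deposited. After centring on the other receptors these counts became 10 higher and 0 lower in odor pools, and 9 higher and 0 lower in vehicle pools, beside the same all-gene shares under that centring. Lbr, the lamin B receptor of the nuclear envelope, was higher (1.99 ± 0.24 and 1.89 ± 0.24, SE; adjusted p = 2.67e-05 and 4.68e-05). Emx2, a homeodomain factor, was lower as deposited (-0.32 ± 0.11 and -0.46 ± 0.11; adjusted p = 0.0406 and 0.00664), and at 0.17 and 0.00 after centring on the other receptors. Bcl11b, a repressor that governs the choice between class I and class II receptors, was not called (-0.05 ± 0.14 and -0.26 ± 0.14; adjusted p = 0.825 and 0.204). The dorsal marker Nqo1 was at -0.09 ± 0.06 in odor pools (adjusted p = 0.322) and -0.19 ± 0.06 in vehicle pools (adjusted p = 0.0474), and the dorsal marker Acsm4 was at -0.07 ± 0.09 and -0.21 ± 0.09 (adjusted p = 0.618 and 0.110). The ventral marker Ncam2 was at -0.26 ± 0.10 in odor (adjusted p = 0.0687) and -0.30 ± 0.10 in vehicle pools (adjusted p = 0.0405). All 3 zonal markers were above 0 in both treatments after that centring. In odor pools Nqo1 (0.40, adjusted p = 0.0338) and Acsm4 (0.43, adjusted p = 0.0430) were then called higher, and Ncam2 (0.23, adjusted p = 0.248) was not. In vehicle pools Nqo1, Acsm4 and Ncam2 were not called (adjusted p = 0.148, 0.233 and 0.446).

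Whether whiskey lactone altered a receptor's distribution between fractions was asked by the odor minus vehicle difference of the fraction differences. No member passed the threshold (0 of 112 by limma, with 0.00513% of all genes called), and 9 had an unadjusted p under 0.05 (8.04%, against 3.27% of all genes). The members' share was near that of the other odorant receptors (7.54%) and of the other chromosome 7 receptors (7.27%). Among these 9, 6 were positive and 3 negative, and 95 of 112 members differed by less than 0.5 on the log2 scale.

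Olfr691 had the largest such difference. Its fraction difference was -0.87, -1.39, -1.46 and -1.85 in odor pools, against -3.01, -2.40, -2.06 and -3.70 in vehicle pools. It was lower in arrays titled GFP+ in every pool, and the odor and vehicle pools did not overlap. The difference was 1.40 ± 0.36 (SE; unadjusted p = 0.00192, adjusted p = 0.999, limma), with adjusted p between 0.412 and 1.00 over 17 alternatives. By array, Olfr691 had 6.51, 6.26, 5.57 and 5.77 in odor arrays titled GFP+ against 4.79, 5.87, 5.42 and 4.69 in vehicle arrays titled GFP+, where 2 of 4 exceeded the negative control median. In arrays titled GFP- it had 7.38, 7.65, 7.02 and 7.62 (odor) against 7.80, 8.27, 7.48 and 8.39 (vehicle).

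Olfr597 had fraction differences of 0.00, 0.50, 0.04 and -0.13 in odor pools, against -1.02, -1.26, -0.19 and -1.06 in vehicle pools. The odor pools lay around 0 and the vehicle pools below 0. Its difference between treatments was 0.99 ± 0.24 (SE; unadjusted p = 0.00120, adjusted p = 0.999, between 0.312 and 1.00 over 17 alternatives). The fraction difference itself was called in vehicle pools (-0.88 ± 0.17, adjusted p = 0.00165) and not in odor pools (0.10 ± 0.17, adjusted p = 0.675). After centring on the other receptors the odor difference was called instead, at 0.60 (adjusted p = 0.0247), and the vehicle difference of -0.42 was not (adjusted p = 0.113).

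Olfr571, the other member whose pools did not overlap, went the opposite way. Its fraction difference was -2.71, -2.41, -3.00 and -2.77 in odor pools, against -1.44, -2.17, -1.79 and -2.09 in vehicle pools, a difference of -0.85 ± 0.24 (SE; unadjusted p = 0.00441, adjusted p = 0.999, limma). In all 3 of 112 members (2.68%) had odor and vehicle pools that did not overlap, where 1.96% of all genes had this. Olfr635 (0.83 ± 0.24), Olfr598 (0.68 ± 0.25) and Olfr610 (-0.59 ± 0.24) completed the 6 members of smallest p, all with adjusted p = 0.999.

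**Figure D4:**
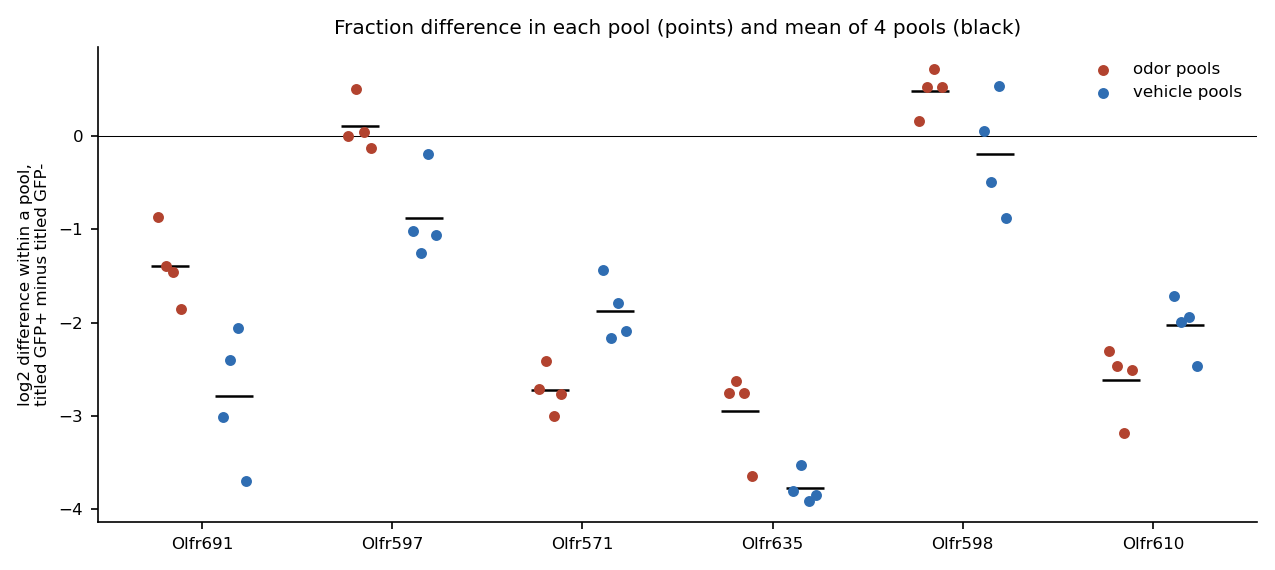
Log2 difference between fractions within each pool (titled GFP+ minus titled GFP-, y axis; points, 4 odor pools in red and 4 vehicle pools in blue; black lines, means) for the 6 members of smallest p in the treatment comparison (x axis). Olfr691 lay between -0.87 and -1.85 in odor pools and between -2.06 and -3.70 in vehicle pools.

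Odor against vehicle was also compared within each fraction. In arrays titled GFP+ no member passed (0 of 112 by limma, with 0.00513% of all genes called). An unadjusted p under 0.05 was seen for 5 members (4.46%, against 4.88% of all genes and 11.3% of the other odorant receptors). The members' median difference was 0.00. Olfr691 differed by 0.83 ± 0.29 (SE; unadjusted p = 0.00896, adjusted p = 0.976), Olfr654 by 0.52 ± 0.22, and Olfr559 and Olfr649 were at -0.97 ± 0.35 and -0.98 ± 0.41, each with adjusted p = 1.00. Olfr559 had 5.22, 7.02, 5.28 and 6.15 in odor arrays titled GFP+ against 7.26, 7.08, 6.69 and 6.54 in vehicle arrays titled GFP+.

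In arrays titled GFP- again no member passed (0 of 112 by limma, with 0% of all genes called). An unadjusted p under 0.05 was seen for 4 (3.57%, against 5.88% of all genes and 9.50% of the other odorant receptors). The members' median difference was -0.16, with 76 of 112 (67.9%) below 0, while the other odorant receptors had a median of 0.08 with 41.5% below 0 and all genes had 49.3% below 0. The members' median was -0.03 without vehicle pool 2 and -0.09 without odor pool 3. The titles do not say that a replicate number is shared between odor and vehicle pools. With that number as a block in arrays titled GFP-, 0 members passed. An unadjusted p under 0.05 (limma) was then seen for 30 (26.8%, against 9.75% of all genes), of which 25 were negative. Olfr654 differed by 0.54 ± 0.22 (SE; unadjusted p = 0.0223, adjusted p = 0.786), with 10.95, 11.03, 11.35 and 11.70 in odor arrays titled GFP- against 10.38, 11.00, 10.88 and 10.60 in vehicle arrays titled GFP-, so the groups overlapped. Olfr597 differed by -0.65 ± 0.28 (adjusted p = 0.818), with 10.20, 10.65, 9.60 and 10.38 in odor against 10.89, 11.44, 10.57 and 10.54 in vehicle arrays of that title. Olfr556 differed by 0.68 ± 0.31 (adjusted p = 0.847).

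**Figure D5:**
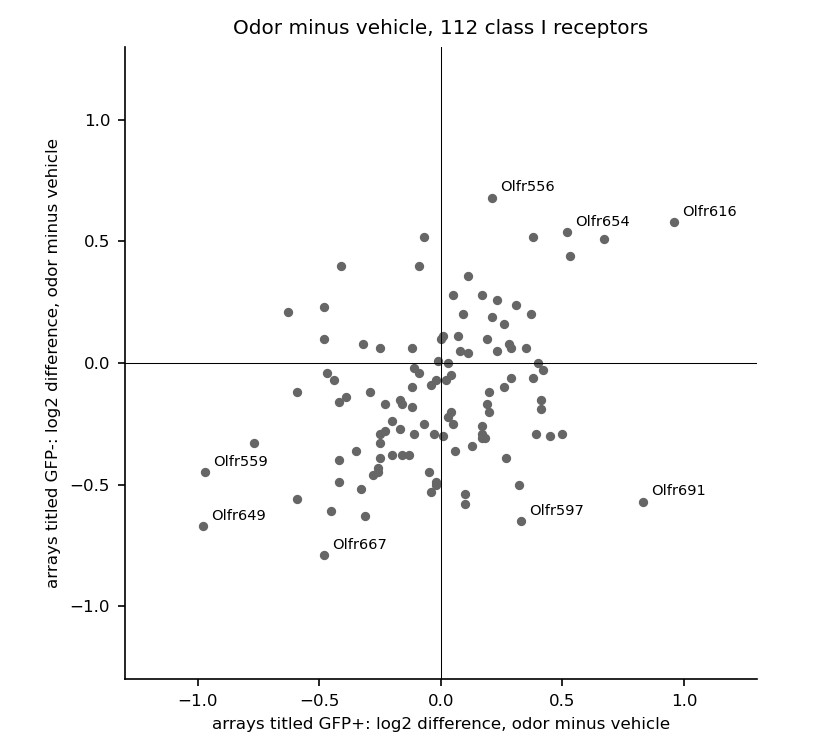
Log2 difference, odor minus vehicle, of the 112 class I receptors in arrays titled GFP+ (x axis) and in arrays titled GFP- (y axis), 1 point per receptor, 4 pools per treatment. Olfr691 lay at 0.83 and -0.57, and no member passed the adjusted threshold on either axis.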

How the data were processed

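Expression was measured on 16 arrays of biotin-labelled cRNA, made from 50 to 100 ng of total RNA per the labels' protocols. The deposited table holds log2 signals, a scale read from its values. The submitters' processing notes name Affymetrix Expression Console as the software, and neither its version nor its settings are given. Of 28846 features, 19572 had 1 gene symbol and 0 had several, and with the brightest feature of each gene kept, 19505 genes entered every test, dim ones included. Background was judged from 5222 negative control features. Where a member was at or below their median in all 4 arrays of a group, its fold change was counted against that median and is a lower bound. For Olfr677, Olfr632, Olfr686 and Olfr644, dim in only some arrays of a group, each dim array was counted at its median in the same way. Other partly dim members, such as Olfr649 in odor pools, are given as fitted differences. The smallest SD of the differences between any pair of arrays was 0.359, so no array was counted as a duplicate.

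Groups and numbers came from the titles. Each number within a treatment is a separate pool of 3 mice that gave both fractions. All tests were two-sided fits by limma 3.58.1 (R 4.3.3; lmFit, eBayes with a variance trend) on all 16 arrays, with Benjamini-Hochberg adjustment over all genes and a threshold of 0.05, and were tested on simulated data. For contrasts between fractions, pool was a fixed block, which left 6 residual degrees of freedom. For odor against vehicle within a fraction, group means were fitted and pool was a random block (correlation 0.164), which left 12. Deviations from group means over all genes correlated between odor and vehicle arrays of the same number at 0.198 to 0.279 in arrays titled GFP-, above 0.1 in 4 of 4 pairs. The titles do not say that a number marks a shared exposure, and arrays of unlike number were not compared. The replicate number was therefore a block across treatments only in alternatives. In arrays titled GFP+ only 3 of 4 pairs were above 0.1, with a range of 0.0787 to 0.410.

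The members and gene lists were chosen with earlier results of these data known. Named were Olfr597, Olfr613 and Olfr691, members with textbook ligands, the 10 largest called differences in each direction with 1 sign in all 4 pools of a treatment, the 6 members of smallest p for the treatment difference, the 3 smallest p in each direction within a fraction, and the 5 members of highest mean signal. Other members named as neighbours were chosen after their values were seen. Lists covered transduction, receptor choice and markers of other cell types. Alternatives were other blocks, median centring, cyclic loess, centring on mature neuron genes or on the other receptors, a filter at the 30th percentile of mean signal, averaging a gene's features, no variance trend, and leaving out each replicate. Identity between receptor proteins was not analysed here. Gene order and upstream windows came from RefSeq (GRCm38.p6), and no build is named for the arrays.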

Additional observations from a re-analysis of the deposited data

Results flagged for a closer look

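In 7 of 156 groups of 4 arrays, over 39 named members, 1 array lay far from the others by Dixon's test, and chance gives about 1 in 20 groups. Olfr544 was 7.06 in odor array 3 titled GFP+, against 7.82 to 7.96 in the others. The remaining 6 were in odor arrays titled GFP-. Olfr677 (5.99, others 4.72 to 4.75) and Olfr558 (7.31, others 6.87 to 6.94) were high in array 1. In array 2, Olfr585 was high (5.04, others 4.43 to 4.47) and Olfr671 low (4.64, others 4.89 to 4.91). In array 3, Olfr598 (11.45, others 12.79 to 12.98) and Olfr649 (7.94, others 8.56 to 8.65) were low. Olfr671 and Olfr585 lay below the negative control median of array 2 (5.293). The Olfr677 values of 4.72 to 4.75 in the other arrays also lay below the medians of those arrays.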

How the results depend on the processing

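Counts of members past the threshold stayed within 1.5 times in both contrasts between fractions, except that centring on the other receptors raised the members higher to 29 (odor, against 18) and 27 (vehicle, against 17). The cause was not tested. That centring also turned the sign of Olfr552, to 0.44 in odor (adjusted p = 0.0282) and 0.02 in vehicle pools (adjusted p = 0.945). Leaving out each replicate gave 16 to 18 higher and 45 to 54 lower members in odor pools, and 15 to 16 higher and 52 to 58 lower in vehicle pools. Among the named members, 14 odor results of 3 members and 20 vehicle results of 6 members lost their call under an alternative, and 12 and 4 gained one. The other 479 and 481 kept their side of the threshold, but some uncalled differences among them changed sign. Olfr549, for example, ranged from -0.7 to 0.18 in odor pools over 13 alternatives. Without the pool as a replicate block, 16 members were higher and 46 lower in odor pools, and 15 higher and 52 lower in vehicle pools. With the replicate number as a block across treatments, 0 members passed for the treatment difference and for odor against vehicle in either fraction. An unadjusted p under 0.05 was then seen for 17 members (15.2%, against 4.47% of all genes) in the treatment difference. For odor against vehicle it was seen for 15 (13.4%, against 5.42%) in arrays titled GFP+ and 30 (26.8%, against 9.75%) in those titled GFP-. Odor against vehicle gave 0 called members in every alternative run. Signals near the negative controls limit the fold changes of dim members, and 10 members exceeded the negative control median in no array. Proteins of neighbouring receptors were not compared, so probes that read a related receptor were not looked for.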
